A study of Mus musculus with 18 samples.

Results

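Hes1 and 9 further genes of the Notch pathway were followed in 2 mouse cancer cell lines grown with or without fibroblasts. The members were taken by gene symbol, ignoring case, from the count table of each line: the ligands Jag1, Jag2 and Dll1, the receptors Notch1, Notch2 and Notch3, and the targets and effectors Hes1, Hey1, Heyl and Nrarp. All 10 members were found in both tables, among 24455 genes for 168FARN and 24532 for LLC1. A filter on low counts left 8 members among the 13540 genes tested in 168FARN and 8 members among the 12873 genes tested in LLC1. The set was chosen by the measured counts of Hes1, which fell strongly in LLC1 cells in coculture. Its values in that contrast are therefore given as a description with no test, and the question was whether the rest of the pathway moved with it.

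Notch receptors are single-pass membrane proteins that are activated by ligands on a neighbouring cell. After ligand binding, the ADAM10 metalloprotease and then gamma-secretase cleave the receptor, and the freed intracellular domain joins the DNA-binding protein RBPJ and a Mastermind coactivator to switch on target genes. Hes and Hey proteins are transcriptional repressors made from such targets, and Nrarp is a target whose product dampens the signal by promoting loss of the intracellular domain. In tumours the pathway can pass signals between cancer cells and the fibroblasts around them, and it acts for or against growth depending on the tissue.

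The 18 RNA-seq libraries came from 168FARN breast cancer cells and LLC1 lung cancer cells, with 3 groups of 3 libraries for each line. GFP-tagged cancer cells were grown as hanging-drop spheroids without other cells (alone), with fibroblasts carrying a non-targeting guide, sgNS (WT coculture), or with fibroblasts in which Prrx1 was deleted by CRISPR/Cas9 with a guide against it, sgPrrx1 (sgPrrx1 coculture). The fibroblasts were cancer-associated fibroblasts of MMTV-PyMT mice (MMTV-CAFs) for 168FARN and fibroblasts of skin wounds taken at day 10 for LLC1, at 3 fibroblasts per cancer cell, and the GFP-tagged cells were sorted from the spheroids after a week. Each line therefore met a different kind of fibroblast, and the line and the fibroblast cannot be told apart. No clone, animal number or animal age was given for the fibroblasts in particular. The methods gave both sexes and only a general age range for the study's mice. Nothing said that replicates came from separate cultures, so p-values measure the spread between these libraries, which may be technical.

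RefSeq promoter sequences on the GRCm38.p6 assembly were available for 7 of the 10 members, all but Hes1, Hey1 and Heyl. Those of 3 members whose levels changed below are shown as the 250 bases upstream of the transcription start, on the strand of the gene. Nrarp is shown because it fell in both LLC1 cocultures, Jag1 because its level in 168FARN depended on the fibroblast, and Notch1 because its 3 groups in 168FARN did not overlap. Capitals mark the letters CACGNG on either strand, a pattern that covers the E box and the class C box bound by Hes proteins.
Nrarp (chr2:25180508-25180757, plus strand): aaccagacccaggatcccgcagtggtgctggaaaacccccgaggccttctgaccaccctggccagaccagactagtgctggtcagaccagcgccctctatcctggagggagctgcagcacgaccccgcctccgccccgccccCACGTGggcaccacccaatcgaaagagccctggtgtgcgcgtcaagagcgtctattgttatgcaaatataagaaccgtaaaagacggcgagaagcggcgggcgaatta
Jag1 (chr2:137116521-137116770, minus strand): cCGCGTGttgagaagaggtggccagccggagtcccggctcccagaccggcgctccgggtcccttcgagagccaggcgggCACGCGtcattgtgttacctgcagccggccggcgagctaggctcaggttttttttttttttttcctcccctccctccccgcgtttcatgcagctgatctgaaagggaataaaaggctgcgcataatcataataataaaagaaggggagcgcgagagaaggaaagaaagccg
Notch1 (chr2:26503823-26504072, minus strand): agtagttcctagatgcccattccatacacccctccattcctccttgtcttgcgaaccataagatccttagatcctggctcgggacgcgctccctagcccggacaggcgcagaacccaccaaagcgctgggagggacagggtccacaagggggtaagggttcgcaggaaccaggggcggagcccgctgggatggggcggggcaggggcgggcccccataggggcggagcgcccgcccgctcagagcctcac
The Nrarp promoter held CACGTG once, 108 bases upstream of the start, where the palindrome reads the same on both strands. Jag1 held a match 249 bases upstream and another 171 bases upstream, and Notch1 held none. Across the 8 promoters of the 7 members, 6 held CACGNG, against 23.5% of the 32851 promoters in the table, and 4 held the N box CACNAG, against 36.7%. The letters CACGAG count under both patterns, and this happened once, in Notch3. The core letters bound by RBPJ, TGGGAA, were in 0 of the 8 windows and in 21.6% of all promoters. Among the targets and effectors only Nrarp could be searched, so this says nothing of Hes1, Hey1 or Heyl. These are matches of letters in a short window, searched after the expression values were known. Hes1 itself lies at chr16:30065357-30067796.

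Library totals ran from 48315037 to 68933002 counts in 168FARN and from 66129117 to 103997560 in LLC1, and 3 counts, the limit that a count of 0 allows, came to 0.0376 to 0.0567 CPM as group means (CPM: counts per 1000000 counts of the library size, scaled by TMM). The third LLC1 sgPrrx1 library stood apart. Its log2 CPM correlated at 0.949 and 0.950 with its replicates, whereas those correlated at 0.991 with each other. LLC1 results that the library moved are given with and without it. Prrx1, deleted in the fibroblasts only, was also read in the cancer cells alone, so its level did not check the labels. In 168FARN it was at 87.2 to 89.7 CPM alone, 128 to 130 CPM with WT fibroblasts and 111 to 113 CPM with sgPrrx1 fibroblasts. In LLC1 it was at 179 to 227 CPM alone, 213 to 226 CPM with WT fibroblasts and 204, 215 and 114 CPM with sgPrrx1 fibroblasts, the last in the third library. Epithelial markers were mostly at or near 0. Epcam had at most 6 counts in 168FARN and 0 in LLC1, Cdh1 at most 8 counts in any library, and Krt8 was abundant only in 168FARN (323 to 422 CPM). Krt19 had 0 counts in 168FARN alone and with sgPrrx1 fibroblasts and was at 2.90 to 3.18 CPM with WT fibroblasts. The endothelial sum in LLC1, carried by Kdr, was at most 0.103 CPM alone, 5.57 to 6.67 CPM with WT fibroblasts and at most 0.352 CPM with sgPrrx1 fibroblasts. The leukocyte markers Ptprc and Cd3e in 168FARN, and Cd3e, Adgre1 and Itgam in LLC1, had 0 counts throughout. In 168FARN the leukocyte-list gene Cd68 was at 23.0 to 24.3 CPM alone, 13.7 to 16.5 CPM with WT fibroblasts and 13.4 to 14.5 CPM with sgPrrx1 fibroblasts. The summed level of the 5 leukocyte genes in LLC1, carried by Cd68, was 15.7 to 17.0 CPM alone, 35.9 to 37.7 CPM with WT fibroblasts and 36.0 to 63.6 CPM with sgPrrx1 fibroblasts. The highest value was that of the third sgPrrx1 library, and the mean of Cd68 in the other 2 was 37.3 CPM.

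Fibroblast markers moved with the groups. The summed level of the 14 fibroblast genes was 194 to 199 CPM in 168FARN alone, 1315 to 1409 CPM with WT fibroblasts and 325 to 335 CPM with sgPrrx1 fibroblasts, with group means above those alone for 12 and 9 of the 14. Col1a2, a defining fibroblast collagen gene, was at 0.0824 to 0.125 CPM alone, 139 to 153 CPM with WT fibroblasts and 11.4 to 14.5 CPM with sgPrrx1 fibroblasts. In LLC1 the sum was carried by the cells' own Col3a1 and was 1775 to 1861 CPM alone, 1342 to 1380 CPM with WT fibroblasts and 1577 to 1728 CPM with sgPrrx1 fibroblasts, with 9 and 6 of the 14 above alone. Without Col3a1 the LLC1 sum ran the other way, at 218 to 239 CPM alone, 279 to 299 CPM with WT fibroblasts and 267 to 271 CPM with sgPrrx1 fibroblasts, apart from 169 CPM in the third sgPrrx1 library. LLC1 Col1a2 was at most 0.0642 CPM alone, 8.22 to 9.27 CPM with WT fibroblasts and 0.223 to 0.311 CPM with sgPrrx1 fibroblasts. The part of any of these markers in the results on Notch genes was not tested, and in sorted bulk libraries more RNA per cell and more cells of a type cannot be told apart.

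**Figure D1:**
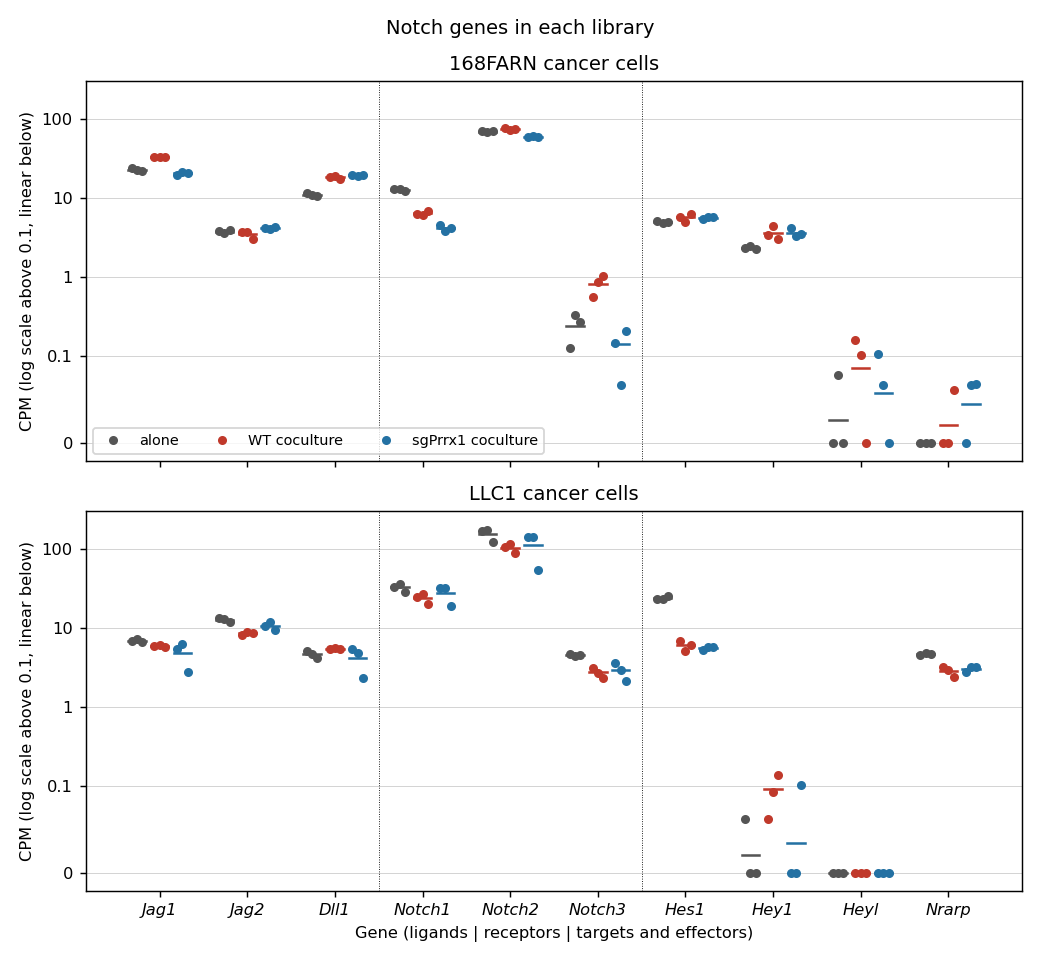
Level of each Notch gene in each library, in CPM on an axis that is logarithmic above 0.1 and linear below, for 168FARN (top) and LLC1 (bottom). Points are the 3 libraries of a group and bars are group means. Hes1 in LLC1 sat at 23.1 to 25.3 CPM alone and at 5.03 to 6.77 CPM in the cocultures, while 168FARN Hes1 stayed between 4.83 and 6.21 CPM in all 9 libraries.

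Levels of different members were compared only per kilobase of transcript. In LLC1 cells alone, Hes1 led at 16.3 ± 0.821 CPM per kb (SD, n = 3), and its libraries overlapped those of Notch2 (14.7 ± 2.65). Notch1 (3.43 ± 0.381) and Jag2 (3.11 ± 0.186) followed and overlapped each other, and Nrarp stood below them at 1.81 ± 0.0494. Dll1 (1.28 ± 0.122) and Jag1 (1.22 ± 0.0458) also overlapped, and Notch3 was at 0.562 ± 0.0147. In LLC1 WT coculture Hes1 was second, at 4.05 ± 0.593 CPM per kb, below Notch2 (9.84 ± 1.31) and above Notch1 (2.50 ± 0.347), with no overlap between these neighbours. In 168FARN alone the order began with Notch2 (6.54 ± 0.154), Jag1 (3.99 ± 0.164), Hes1 (3.36 ± 0.0787) and Dll1 (3.04 ± 0.143), followed by Notch1, Hey1 and Jag2, again with no overlap between neighbours. Notch3, Heyl and Nrarp closed the 168FARN order at or below 0.0298 CPM per kb.

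Hes1 was far lower in LLC1 coculture than alone, and 2 of the 7 other members tested were called lower in WT coculture, where 4.58% of all tested genes were. Next to Hes1, Nrarp was lower than alone in both LLC1 cocultures and the ligand Jag2 in the WT coculture, while no member was called higher. Without the third LLC1 sgPrrx1 library, Notch1, Notch2 and Notch3 were also called lower in WT coculture, where 22.2% of all genes were. In 168FARN the members split: the ligands Jag1 and Dll1, the receptors Notch2 and Notch3 and the target Hey1 rose in WT coculture, the receptor Notch1 fell, and Hes1 did not pass. Over all tested genes, 33.4% were called higher in that contrast and 30.7% lower. With Prrx1-deleted fibroblasts, Jag1, Notch1, Notch2 and Notch3 were lower in 168FARN than with WT fibroblasts, where 33.1% of all tested genes were. With all libraries no member passed the threshold for that contrast in LLC1, where 0.0544% of all tested genes were called lower. Without the third LLC1 sgPrrx1 library, Jag2 was called higher there (0.38, edgeR adjusted p = 0.0402), as were 2.94% of all genes.

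The first role is that of the ligands. Jag1, a Jagged ligand, was at 23.4, 22.2 and 21.6 CPM in the 3 libraries of 168FARN alone, at 33.0, 33.2 and 32.6 CPM with WT fibroblasts and at 19.6, 21.0 and 20.6 CPM with sgPrrx1 fibroblasts. All WT coculture libraries lay above both other groups, and all sgPrrx1 coculture libraries lay below those alone. Jag1 rose by 0.56 ± 0.041 (log2 fold change ± SE) in WT coculture against alone (edgeR adjusted p = 4.7e-07), and its log2 fold change from WT to sgPrrx1 coculture was -0.69 ± 0.041 (edgeR adjusted p = 1.43e-07). Its level in sgPrrx1 coculture was also slightly below alone, with a log2 fold change of -0.14 ± 0.042 (edgeR adjusted p = 0.0181). That last call was lost with DESeq2 (adjusted p = 0.0671), without the first library alone (edgeR adjusted p = 0.0627) and without the first sgPrrx1 library (edgeR adjusted p = 0.0674). The order of Jag1 between WT and sgPrrx1 coculture was also that of Col1a2, whereas the order between alone and sgPrrx1 coculture was not.

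Dll1, a Delta-like ligand, was at 11.4, 10.8 and 10.4 CPM in 168FARN alone, at 18.3, 18.8 and 17.5 CPM with WT fibroblasts and at 19.4, 19.0 and 19.2 CPM with sgPrrx1 fibroblasts. It rose with either fibroblast, by a log2 change of 0.74 ± 0.049 in WT coculture (edgeR adjusted p = 2.03e-07) and 0.82 ± 0.049 in sgPrrx1 coculture (edgeR adjusted p = 1.77e-07). The cocultures did not differ past the threshold for Dll1, at 0.08 (95% interval -0.016 to 0.17). Its interval between the cocultures lay above the log2 fold change of Jag1.

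Jag2, the other Jagged ligand, ran from 3.00 to 4.21 CPM across the 9 libraries of 168FARN and passed the threshold in no contrast there. The LLC1 libraries held more Jag2, with 13.1, 13.0 and 11.8 CPM alone, 8.13, 8.71 and 8.61 CPM with WT fibroblasts and 10.4, 11.7 and 9.36 CPM with sgPrrx1 fibroblasts. The WT coculture libraries lay below all others. Jag2 fell in LLC1 WT coculture by a log2 change of -0.57 ± 0.11 (edgeR adjusted p = 0.0175), and at -0.27 ± 0.11 in sgPrrx1 coculture it did not pass (edgeR adjusted p = 0.186). The call was lost without any 1 of the 6 libraries alone or in WT coculture (edgeR adjusted p = 0.0582 to 0.0879), and without the third sgPrrx1 library it was -0.56 (edgeR adjusted p = 5.22e-04). Without the third sgPrrx1 library, Jag2 was the higher with sgPrrx1 fibroblasts, at a log2 fold change of 0.38 (edgeR adjusted p = 0.0402), against 0.31 with it (edgeR adjusted p = 0.342).

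Every LLC1 library had less Jag1 and less Dll1 than any 168FARN library, and neither passed in any LLC1 contrast. Jag1 was at 6.80, 7.16 and 6.66 CPM alone, 5.87, 6.12 and 5.69 CPM with WT fibroblasts and 5.43, 6.27 and 2.72 CPM with sgPrrx1 fibroblasts, and the last value is from the library that stood apart. The log2 fold change of Jag1 in sgPrrx1 coculture against alone was -0.51 with that library (edgeR adjusted p = 0.27) and -0.23 without it (edgeR adjusted p = 0.0987). Dll1 was at 4.14 to 5.02 CPM alone, 5.34 to 5.46 CPM with WT fibroblasts and 5.44, 4.78 and 2.28 CPM with sgPrrx1 fibroblasts. Its log2 fold change in sgPrrx1 coculture against alone was -0.13 with the third library and 0.16 without it, called in neither case.

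The receptors come next. Notch1 was at 12.7, 12.9 and 12.0 CPM in 168FARN alone, at 6.27, 6.03 and 6.80 CPM with WT fibroblasts and at 4.50, 3.74 and 4.15 CPM with sgPrrx1 fibroblasts, so that the 3 groups did not overlap. It fell by a log2 change of -0.98 ± 0.080 in WT coculture (edgeR adjusted p = 1.16e-06) and of -1.61 ± 0.084 in sgPrrx1 coculture (edgeR adjusted p = 6.16e-08). The further drop from WT to sgPrrx1 coculture was -0.62 ± 0.086 (edgeR adjusted p = 8.94e-05). Notch1 was lowest where Col1a2 was intermediate and highest where Col1a2 was lowest, and the part of that marker in the Notch1 values was not tested.

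Notch2, the most abundant receptor in both lines per kilobase, moved little in 168FARN. The libraries gave 70.3, 67.1 and 68.8 CPM alone, 75.4, 70.9 and 75.0 CPM with WT fibroblasts and 59.1, 59.6 and 58.9 CPM with sgPrrx1 fibroblasts. The log2 fold change was 0.10 ± 0.032 in WT coculture (edgeR adjusted p = 0.0163) and -0.22 ± 0.032 in sgPrrx1 coculture (edgeR adjusted p = 2.4e-04), and -0.32 ± 0.032 between the cocultures (edgeR adjusted p = 8.21e-06). The small rise was lost without the second library alone (edgeR adjusted p = 0.0613) or without the first WT coculture library (edgeR adjusted p = 0.063).

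Notch3, which is known from mural cells and some cancer-associated fibroblasts, had 4 to 59 counts per library in 168FARN. Its level was 0.123, 0.327 and 0.268 CPM alone, 0.554, 0.861 and 1.01 CPM with WT fibroblasts and 0.146, 0.0669 and 0.203 CPM with sgPrrx1 fibroblasts. All WT coculture libraries exceeded all others. Notch3 rose by a log2 change of 1.71 ± 0.43 in WT coculture (edgeR adjusted p = 0.00471) and its log2 fold change from WT to sgPrrx1 coculture was -2.52 ± 0.47 (edgeR adjusted p = 7.16e-04). Its order between WT and sgPrrx1 coculture was that of Col1a2 and of the summed level of the 4 mural markers, which was 0.494 to 0.561 CPM alone, 9.69 to 11.1 CPM with WT fibroblasts and 0.602 to 0.834 CPM with sgPrrx1 fibroblasts. The sum in WT coculture was carried by Acta2 (8.72 to 9.98 CPM), which fibroblasts also express, with Rgs5 at 0, and the part of either marker set in the Notch3 values was not tested.

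In LLC1 the receptor levels spread more. Notch1 was at 33.2, 35.7 and 28.6 CPM alone, 24.6, 26.5 and 20.0 CPM with WT fibroblasts and 31.6, 32.2 and 18.7 CPM with sgPrrx1 fibroblasts. Notch2 was at 166, 175 and 122 CPM alone, 105, 116 and 89.0 CPM with WT fibroblasts and 143, 143 and 53.6 CPM with sgPrrx1 fibroblasts. For both receptors the WT coculture libraries lay below all libraries alone, and the lowest value was that of the third sgPrrx1 library. Neither receptor passed the threshold with all libraries, at log2 fold changes of -0.46 ± 0.21 and -0.58 ± 0.34 in WT coculture (edgeR adjusted p = 0.239 and 0.350). With the third sgPrrx1 library left out, Notch1 was called at -0.44 (edgeR adjusted p = 0.0116) and Notch2 at -0.56 (edgeR adjusted p = 0.00961), since the estimate of the spread is shared by the 3 groups. Both were also called with only the 2 groups compared (edgeR adjusted p = 0.021 and 0.0168) and with limma voom (adjusted p = 5.46e-04 and 2.29e-04). In sgPrrx1 coculture against alone, leaving that library out moved Notch1 from -0.24 to -0.018 and Notch2 from -0.45 to -0.10, and neither was called with it or without it.

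Notch3 was at 4.64, 4.41 and 4.50 CPM in LLC1 alone, 3.10, 2.70 and 2.31 CPM with WT fibroblasts and 3.57, 2.93 and 2.12 CPM with sgPrrx1 fibroblasts. Every coculture library lay below every library alone. The mural sum, carried there by Mcam, was 24.0 to 28.3 CPM alone, 19.7 to 23.1 CPM with WT fibroblasts and 21.1 to 22.2 CPM with sgPrrx1 fibroblasts, and its part in the Notch3 values was not tested. The log2 fold change of Notch3 was -0.74 ± 0.20 in WT coculture (edgeR adjusted p = 0.0569) and -0.65 ± 0.20 in sgPrrx1 coculture (edgeR adjusted p = 0.107), and neither passed. Without the third sgPrrx1 library these were -0.73 (edgeR adjusted p = 0.00289) and -0.47 (edgeR adjusted p = 0.0474). With all libraries the first was called under the replicate block (edgeR adjusted p = 0.0427) and with only the 2 groups compared (edgeR adjusted p = 0.00439), and both were called with DESeq2 (adjusted p = 0.011 and 0.0357) and with limma voom (adjusted p = 0.00121 and 0.00543).

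Among the targets, LLC1 Hes1 was at 23.3, 23.1 and 25.3 CPM alone, at 6.77, 5.03 and 6.04 CPM with WT fibroblasts and at 5.25, 5.66 and 5.65 CPM with sgPrrx1 fibroblasts. The cocultures lay far below the libraries alone and overlapped each other. Hes1 in WT coculture was 24.9% of its level alone, a log2 fold change of -2.00, and in sgPrrx1 coculture 23.1%, a log2 fold change of -2.11. These values chose the subject and carry no test. The third sgPrrx1 library, which stood apart for the receptors, did not do so for Hes1, and the log2 fold change in sgPrrx1 coculture was -2.12 without it. Between the cocultures, which the choice did not use, Hes1 differed by -0.11 (95% interval -0.35 to 0.13, edgeR adjusted p = 0.735).

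In 168FARN, Hes1 was at 5.05, 4.83 and 4.90 CPM alone, 5.75, 4.88 and 6.21 CPM with WT fibroblasts and 5.30, 5.67 and 5.75 CPM with sgPrrx1 fibroblasts. The sgPrrx1 libraries lay above those alone, and the WT coculture libraries overlapped them. Its log2 fold change was 0.18 (95% interval -0.0097 to 0.38, edgeR adjusted p = 0.126) in WT coculture and 0.18 (95% interval -0.016 to 0.37, edgeR adjusted p = 0.16) in sgPrrx1 coculture. Leaving out 1 library each gave 0.11 to 0.27 in WT coculture, and without the second WT coculture library Hes1 was called higher at 0.27 (edgeR adjusted p = 0.0247).

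Nrarp, the feedback regulator, was the other target measured in LLC1. The libraries gave 4.51, 4.75 and 4.68 CPM alone, 3.14, 2.87 and 2.38 CPM with WT fibroblasts and 2.71, 3.14 and 3.15 CPM with sgPrrx1 fibroblasts. Every coculture library lay below every library alone, and the cocultures overlapped. Nrarp fell by a log2 change of -0.73 ± 0.14 in WT coculture (edgeR adjusted p = 0.0174) and -0.63 ± 0.14 in sgPrrx1 coculture (edgeR adjusted p = 0.0433). The call in WT coculture was lost without any 1 of the 3 libraries alone or without the second or the third WT coculture library (edgeR adjusted p = 0.0684 to 0.0786). That in sgPrrx1 coculture was lost with the replicate number as a block (edgeR adjusted p = 0.0713), with no filter (edgeR adjusted p = 0.0548), with only the 2 groups compared (edgeR adjusted p = 0.138) and without any 1 of the 8 libraries other than the third sgPrrx1 library (edgeR adjusted p = 0.0558 to 0.177). Without that library Nrarp was called in both contrasts, at -0.72 (edgeR adjusted p = 0.00222) and -0.66 (edgeR adjusted p = 0.00999). In 168FARN it had 0 to 4 counts in each library and was not tested.

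Hey1, a repressor related to Hes1, passed the filter in 168FARN only. Its 168FARN libraries gave 2.30, 2.46 and 2.20 CPM alone, 3.37, 4.35 and 3.02 CPM with WT fibroblasts and 4.07, 3.28 and 3.47 CPM with sgPrrx1 fibroblasts. Each coculture library lay above every library alone, with log2 fold changes of 0.63 ± 0.15 (edgeR adjusted p = 0.00407) and 0.63 ± 0.16 (edgeR adjusted p = 0.00615). Hey1 in LLC1 had 0 to 10 counts and was not tested, and Heyl had 0 to 11 counts in 168FARN and 0 in all 9 LLC1 libraries.

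**Figure D2:**
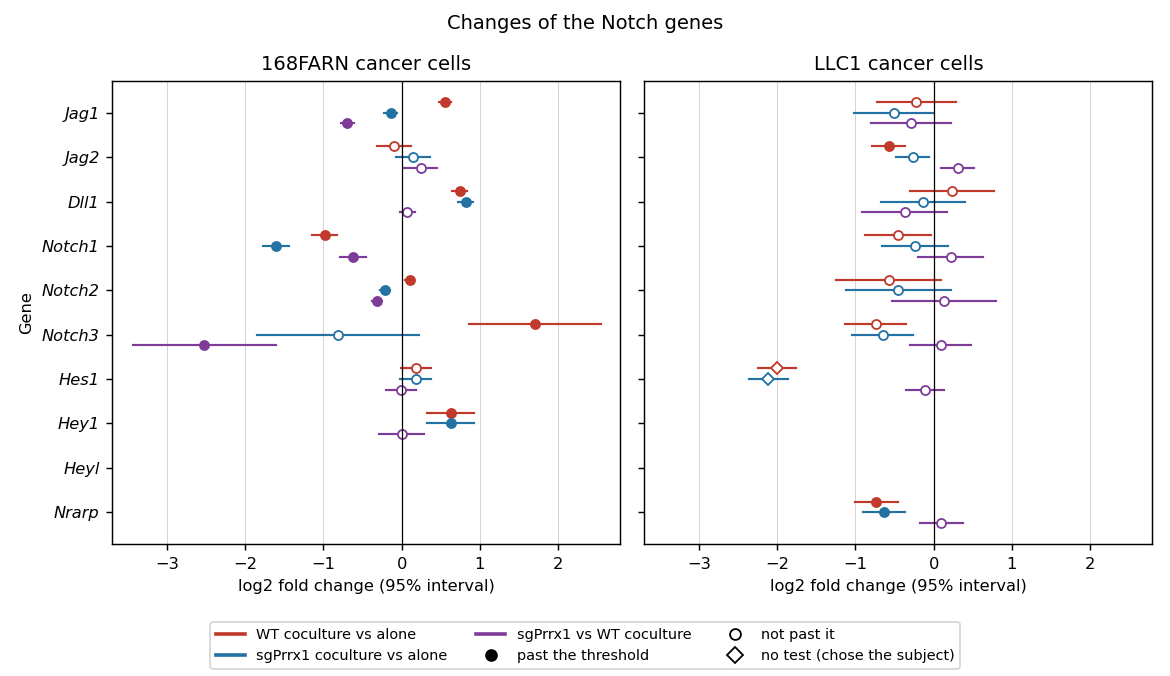
Log2 fold change of each tested member in each contrast, with 95% intervals as bars, in 168FARN (left) and LLC1 (right). The bars use a normal approximation and are narrower than the test allows, so a bar can clear 0 where the unadjusted p is above 0.05. Filled points passed an adjusted p of 0.05 and diamonds mark Hes1 in LLC1 coculture against alone, which has no test. The bars on the diamonds are no test either, since those values chose the subject. The intervals are narrow in 168FARN and wide in LLC1 for Jag1, Dll1, Notch1 and Notch2, and Hes1 at -2.00 and -2.11 lies farthest from 0 among the LLC1 members.

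Counted over the members, 5 of the 8 tested in 168FARN were higher in WT coculture than alone and 1 was lower, where 33.4% of all tested genes were called higher and 30.7% lower. In sgPrrx1 coculture 2 were higher and 3 lower (25.7% and 24.1% of all genes), and between the cocultures 0 were higher and 4 lower in sgPrrx1 (26.9% and 33.1%). The median log2 fold change of the 8 members was 0.37, 0.0048 and -0.16 in these contrasts, beside 0.0061, 0.0046 and -0.028 over all genes tested.

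In LLC1, leaving Hes1 out, 2 of the 7 members tested fell in WT coculture and 0 rose, where 4.58% of all tested genes were called lower and 4.25% higher. In sgPrrx1 coculture 1 of 7 fell and 0 rose (2.31% and 2.01%). The median log2 fold change of the 7 members was -0.57 and -0.45, beside -0.016 and -0.0062 over all genes. Without the third sgPrrx1 library the medians were -0.56 and -0.18, and 5 of 7 were lower in WT coculture (22.2% of all genes were called lower) and 2 of 7 in sgPrrx1 coculture (14.2% lower and 12.5% higher over all genes). Both contrasts share the libraries alone. Leaving out other libraries also moved the first count: without any 1 of the 3 libraries alone, or without the second or the third WT coculture library, no member was called, and without the first WT coculture library 1 was, while every log2 fold change of Jag2 and Nrarp kept its sign. In these fits 2.09% to 3.05% of all genes were called in either direction. The single call in sgPrrx1 coculture, Nrarp, was lost without any 1 of the other 8 libraries (0.398% to 1.61% of all genes called) and with the replicate block (2.96%).

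Between the LLC1 cocultures 0 of 8 members passed with edgeR, where 0% of all genes were called higher and 0.0544% lower. At an unadjusted p under 0.05 the count was 1 (12% of all genes), with DESeq2 it was 0 (3.89% of all genes), and with limma voom and sample weights it was 3 (Jag2, Notch1 and Notch2, all higher in sgPrrx1 coculture), where 36.4% of all genes were called. Without the third sgPrrx1 library, edgeR called 1 member, Jag2, where 2.94% of all genes were called higher and 2.75% lower.

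The change from alone to WT coculture was compared between the lines in 1 model of all 18 libraries, for the 8 members other than Hes1 that passed the filter. It differed for Notch3, by a log2 difference (LLC1 minus 168FARN) of -2.44 ± 0.45 (edgeR adjusted p = 7.86e-04), for Jag2, by -0.47 ± 0.15 (edgeR adjusted p = 0.0269), and for Jag1, by -0.77 ± 0.28 (edgeR adjusted p = 0.0472), and all 3 differences were negative, the change in LLC1 lying below that in 168FARN. The Jag1 call was lost without any 1 of the 9 libraries of 168FARN or any 1 of the 6 LLC1 libraries alone or in WT coculture (edgeR adjusted p = 0.0613 to 0.0977), and that of Jag2 without any 1 of 6 libraries, 3 of each line (edgeR adjusted p = 0.0587 to 0.0727). Over all 14369 genes in that model, 15.8% were called lower and 13.7% higher. The remaining members, Dll1, Notch1, Notch2, Hey1 and Nrarp, did not pass, although Notch1 did with the replicate block within each line (0.52, edgeR adjusted p = 0.031). Leaving out the third LLC1 sgPrrx1 library raised the count from 3 to 6, adding Dll1 (-0.47), Notch2 (-0.63) and Notch1 (0.57), while the share of all genes called in either direction became 52.5%.

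The genes most like Hes1 in LLC1 were looked up over all genes. Over the 9 LLC1 libraries, among 11002 genes with a mean of at least 100 counts, the highest Pearson correlations of log2 CPM with Hes1 were those of Bbs9, a subunit of the ciliary BBSome (0.997), Dusp1, a phosphatase of MAP kinases (0.994), Jun, an AP-1 subunit (0.993), Nrbp2, a pseudokinase (0.992), and the chemokine Ccl20 (0.991). These points share the libraries and fall into a group alone and a coculture group, so the values mostly restate that split. The same holds for the members, with 0.942 for Nrarp, 0.856 for Notch3, 0.757 for Jag2, 0.508 to 0.522 for Jag1, Notch1 and Notch2 and -0.024 for Dll1, which restate each gene's own change from alone. Dusp1 was at 200 to 214 CPM alone and 72.4 to 79.4 CPM in the cocultures, and Ccl20 at 11.0 to 12.5 CPM alone and 3.13 to 3.86 CPM in the cocultures.

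**Figure D3:**
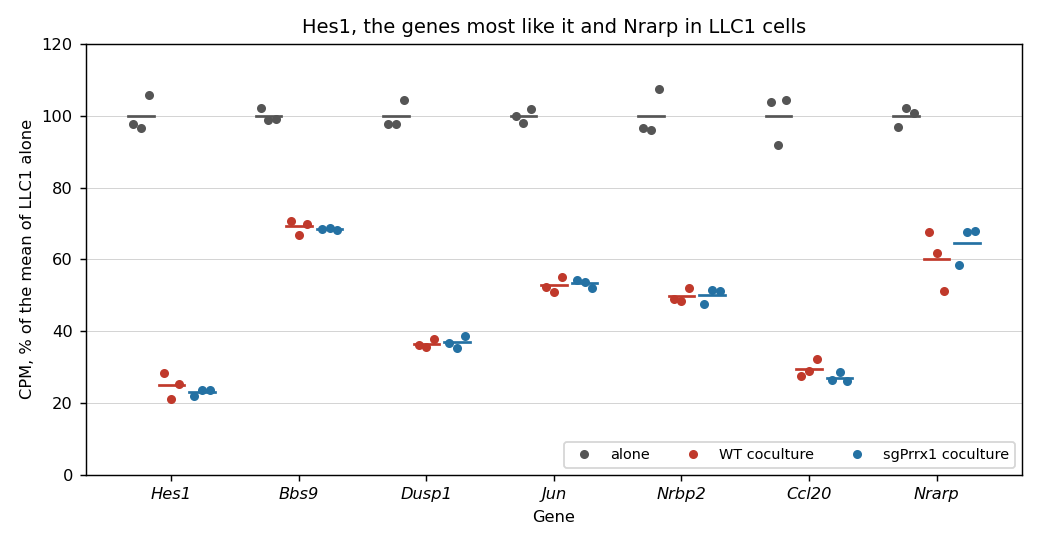
Level of Hes1, of the 5 genes with the highest correlation with it and of Nrarp in LLC1, as a percent of the mean of the libraries alone. Points are the 3 libraries of a group and bars their means. Hes1 in WT coculture was at 24.9% of alone, and the WT and sgPrrx1 coculture libraries overlap for every gene shown.

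In 168FARN, where Hes1 did not pass with all libraries, the genes most like it over 9 libraries and 10875 genes were Ubald1 (0.957), Nup62, Tsg101, Zfp142 and 4930402H24Rik. Nup62 lay between 125 and 138 CPM in all libraries, whereas 4930402H24Rik was at 32.2 to 33.6 CPM alone, 36.6 to 56.9 CPM with WT fibroblasts and 47.1 to 48.8 CPM with sgPrrx1 fibroblasts, with no overlap between the libraries alone and those in coculture. Among the members, Dll1 had the highest correlation with Hes1 there (0.632) and Notch1 the lowest (-0.598).

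The wider pathway was read from a list of 75 further genes. In LLC1 WT coculture 2 of the 65 tested were higher and 5 lower, where 4.25% of all genes were called higher and 4.58% lower, and the median log2 fold change was -0.23, beside -0.016 over all genes. Myc, a growth regulator and reported Notch target, fell from 935 ± 26.7 CPM alone to 548 ± 26.1 CPM, a log2 fold change of -0.77 ± 0.095 (edgeR adjusted p = 0.00411). Maml2, a Mastermind coactivator, fell by a log2 change of -0.78 ± 0.18 (edgeR adjusted p = 0.0348), and Neurl1b, a ubiquitin ligase that acts on ligands, by -0.74 ± 0.10 (edgeR adjusted p = 0.00589). The Maml2 call was lost with no scaling factors (edgeR adjusted p = 0.0614). Id1, a helix-loop-helix inhibitor best known as a BMP target, rose from 21.1 ± 1.21 to 37.2 ± 2.70 CPM (log2 fold change 0.82 ± 0.20, edgeR adjusted p = 0.0414). The other gene called higher was Dlk1, a non-canonical ligand that is named outside the rule, after its values were seen, because of its low counts. Dlk1 had 0, 0 and 3 counts alone and was at 0.497, 0.675 and 0.579 CPM with WT fibroblasts. With so few counts alone, it passed the low-count filter only through coculture libraries. Its call as higher was therefore largely fixed by the filter, and its values are given as a description. Rbpj itself was not called.

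LLC1 sgPrrx1 coculture gave 2 higher and 3 lower of 65, where 2.01% and 2.31% of all genes were called, and the median log2 fold change was -0.22, beside -0.0062 over all genes. Myc was at 527 ± 47.0 CPM, with a log2 fold change of -0.83 ± 0.095 against alone (edgeR adjusted p = 0.00619), Neurl1b fell by -0.54 ± 0.10 (edgeR adjusted p = 0.03) and its relative Neurl3 by -0.49 ± 0.094 (edgeR adjusted p = 0.03). Id1 rose to a mean of 43.8 CPM, a log2 fold change of 1.06 ± 0.20 (edgeR adjusted p = 0.0298), with 37.0 and 34.5 CPM in the first 2 libraries and 59.9 CPM in the third. Without the third library the mean was 35.8 CPM and the log2 fold change 0.77 (edgeR adjusted p = 5.6e-04). The call was lost with only the 2 groups compared (edgeR adjusted p = 0.15) and without any 1 of 7 other libraries, those being all but the second sgPrrx1 library (edgeR adjusted p = 0.0546 to 0.142). Under the replicate block the list calls went from 5 to 3: Neurl3 (edgeR adjusted p = 0.0514) and the ligand Dlk2 (edgeR adjusted p = 0.0686, named after its values were seen) were lost. Between the cocultures 0 of 65 passed with edgeR, 8 had an unadjusted p under 0.05 (12% of all genes did), DESeq2 called 3 (3.89% of all genes) and limma voom with sample weights 23 (36.4%). Without the third sgPrrx1 library the counts were 36 of 65 in WT coculture (10 higher and 26 lower), 22 in sgPrrx1 coculture (10 higher and 12 lower) and 4 between the cocultures (all higher), where 22.0% of all genes were called higher and 22.2% lower in WT coculture. Over all genes the shares were 12.5% higher and 14.2% lower in sgPrrx1 coculture, and 2.94% and 2.75% between the cocultures. The 6 alone and WT coculture libraries moved the WT coculture count as well, to 3 or 4 without any 1 of them (2.09% to 3.05% of all genes), and the sgPrrx1 coculture count was 1 to 3 without any 1 of the other 8 libraries (0.398% to 1.61%). Of the genes named, Myc and Neurl1b were still called in WT coculture without any 1 of those 6 libraries, and Id1 and Maml2 were not. In sgPrrx1 coculture Myc was still called without any 1 of those 8, and Neurl1b and Neurl3 were not.

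In 168FARN, 27 of the 69 tested list genes were higher in WT coculture and 19 lower, where 33.4% of all genes were called higher and 30.7% lower. The median log2 fold change of the list was 0.052, beside 0.0061 over all genes. Dlk1 had 0 counts in all libraries alone and 1.87 to 2.38 CPM with WT fibroblasts, at least 38.7-fold higher against a floor of 3 counts per library, and 4.16 to 4.46 CPM with sgPrrx1 fibroblasts, at least 76.0-fold higher. Of the cocultures, Dlk1 was higher in the one where Col1a2 was lower, by 0.96 ± 0.14 (edgeR adjusted p = 3.67e-04). Notch4, the receptor best known from endothelium, rose from 3.41 ± 0.383 CPM alone to 10.5 ± 0.21 CPM with WT fibroblasts and 8.76 ± 0.689 CPM with sgPrrx1 fibroblasts (edgeR adjusted p = 6.19e-08 and 5.34e-07). The summed level of the 5 endothelial markers rose beside it, from 0.535 to 0.658 CPM alone to 5.71 to 6.74 CPM with WT fibroblasts and 4.08 to 4.64 CPM with sgPrrx1 fibroblasts. The sum was carried by Cdh5, with Emcn at 0, and group means were above alone for only 3 and 2 of the 5. The part of these markers in the Notch4 values was not tested.

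Myc rose in 168FARN WT coculture, from 128 ± 16.7 to 280 ± 42.2 CPM (log2 fold change 1.13 ± 0.12, edgeR adjusted p = 1.27e-05), where it had fallen in LLC1. That difference between the lines was not tested for Myc. Neurl1b (-1.12 ± 0.058, edgeR adjusted p = 3.18e-08), Id1 (-0.81 ± 0.049, edgeR adjusted p = 1.08e-07) and the corepressor Tle2 (-0.64 ± 0.079, edgeR adjusted p = 3.17e-05) were the lowest by log2 fold change in WT coculture. In sgPrrx1 coculture 17 were higher and 20 lower (25.7% and 24.1% of all genes). Dtx3l, of the Deltex family, rose by 0.76 ± 0.046 (edgeR adjusted p = 1.97e-07) while Neurl1b (-0.90 ± 0.057, edgeR adjusted p = 2.97e-07), Tle2 (-0.76 ± 0.080, edgeR adjusted p = 1.67e-05) and the protease gene Adam17 (-0.50 ± 0.025, edgeR adjusted p = 3.62e-08) fell.

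Between the 168FARN cocultures 11 list genes were higher with sgPrrx1 and 31 lower (26.9% and 33.1% of all genes). Besides Dlk1, Id1 was higher by 0.81 ± 0.049 (edgeR adjusted p = 1.71e-07), back at 76.7 ± 0.401 CPM beside 76.6 ± 1.08 CPM alone, and Neurl3 by 0.78 ± 0.070 (edgeR adjusted p = 3.45e-06). Hes7 (-0.82 ± 0.21, edgeR adjusted p = 0.00631), Myc (-0.62 ± 0.12, edgeR adjusted p = 0.00127) and the corepressor Tle5 (-0.61 ± 0.19, edgeR adjusted p = 0.0169) were lower. Tle5 was at 154, 287 and 159 CPM with WT fibroblasts and 129 to 134 CPM with sgPrrx1 fibroblasts, and without the second WT coculture library its log2 fold change was -0.25 (edgeR adjusted p = 0.00252). Of the 10 genes of receptor cleavage, 0 were higher and 6 lower in each of the 3 contrasts, where 30.7%, 24.1% and 33.1% of all genes were called lower. The contrasts share libraries, and the median log2 fold changes of the class were -0.13, -0.28 and -0.19, beside 0.0061, 0.0046 and -0.028 over all genes. The median absolute values were 0.17, 0.34 and 0.19, beside 0.26, 0.17 and 0.24. Psenen in WT coculture (edgeR adjusted p = 0.0411) was lost with no scaling factors (edgeR adjusted p = 0.101). Psen2 between the cocultures (edgeR adjusted p = 0.0397) was lost under the replicate block (edgeR adjusted p = 0.062). Among them Adam10, Adam17 and Ncstn were lower in all 3, and Adam17 went from 345 ± 3.76 CPM alone to 264 ± 0.639 CPM with WT fibroblasts and 243 ± 5.27 CPM with sgPrrx1 fibroblasts.

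**Figure D4:**
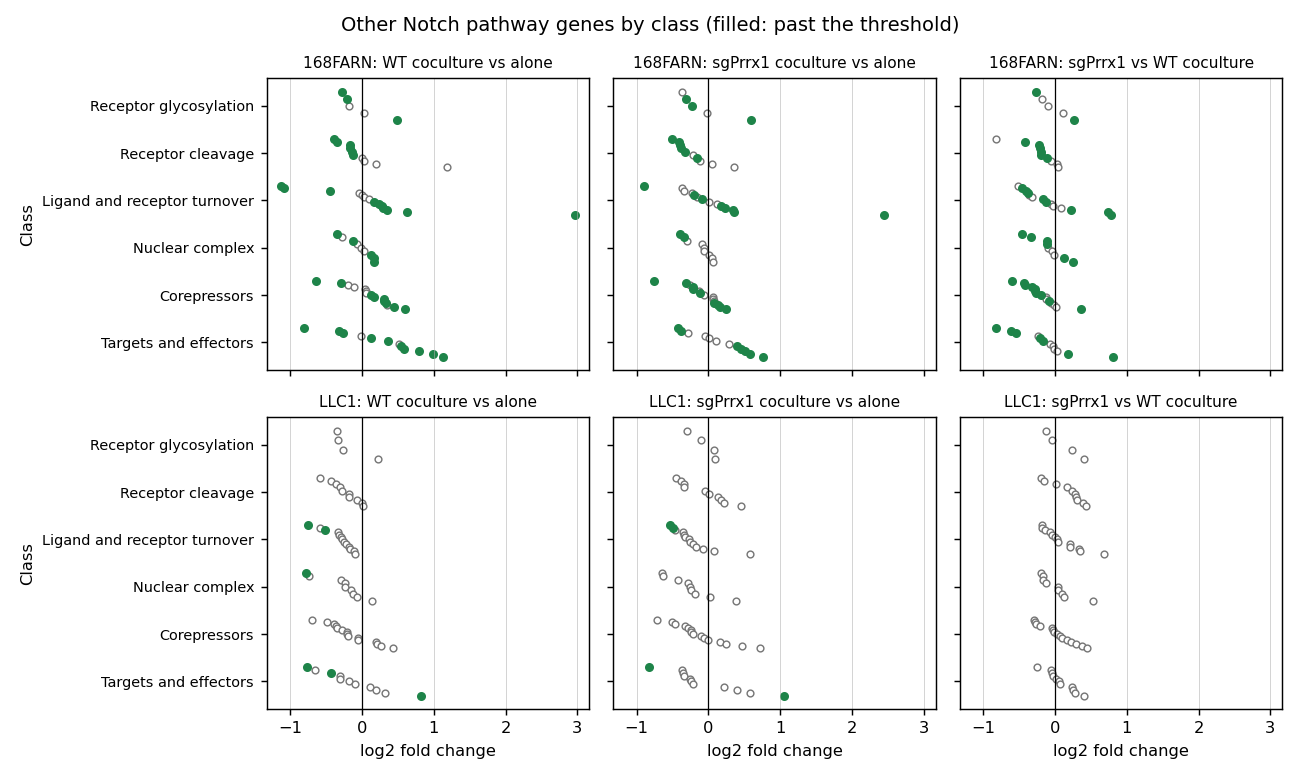
Log2 fold change of the other pathway genes that passed the filter, by class, for the 3 contrasts in 168FARN (top) and LLC1 (bottom), with genes past an adjusted p of 0.05 filled. Ligands and Notch4 are left out of the plot. In 168FARN the filled receptor cleavage genes, 6 of 10 in each contrast, all lie below 0, and in LLC1 between the cocultures no gene is filled.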

How the data were processed

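The authors deposited whole-number read counts per gene, 1 table per cell line. The reads were paired-end and, per the labels and the study's methods, were trimmed with Trimmomatic, aligned with STAR to mm10 and counted with HTSeq, and whether counting used strand was not stated. The methods also name a batch correction of counts by ComBat-seq without saying for which data, so whether the deposited counts had been corrected is not known. Counts were analysed with edgeR 4.0.16 in R 4.3.3: filterByExpr, TMM scaling, and the quasi-likelihood test over the 9 libraries of a line in 1 model, with Benjamini-Hochberg adjustment over all genes and a threshold of 0.05. SEs were taken from the log2 fold change and the F statistic. The 95% intervals used a normal approximation with these SEs, so they are narrower than the F test allows. The lines were compared in 1 model of 18 libraries, with symbols matched ignoring case. DESeq2 1.42.0, limma 3.58.1 (voom with sample weights), other scalings and filters, and left-out libraries were alternatives. The script was tested on simulated data. Transcript lengths for CPM per kb came from the longest coding transcript of GENCODE vM1, and promoters from RefSeq GRCm38.p6. Members and lists were chosen with earlier results of these data known. The genes named from the list were those past the threshold with at least 100 counts on average, the 3 highest and 3 lowest by log2 fold change. Values of 1 further gene of that list are not reported here. Replicate numbers were taken to pair samples where the deviations from the group means correlated above 0.1 in all 3 pairs. This held for LLC1 alone and sgPrrx1 coculture (0.13 to 0.42), from the data only, since no label links the numbers, and for no other pair of groups (lowest correlation -0.073 to 0.0021). The main tests did not use this pairing, and the replicate block was an alternative. Deviations within a group cancel out, so the 3 correlations are not separate checks.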

Additional observations from a re-analysis of the deposited data

Results flagged for a closer look

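The change from alone to WT coculture differed between the lines, by the interaction test, for 3 of the 8 members tested, where 13.7% of all genes differed upwards and 15.8% downwards. Notch3 rose in 168FARN and did not pass the threshold in LLC1 (-0.74, edgeR adjusted p = 0.0569), with a log2 difference (LLC1 minus 168FARN) of -2.44, which passed in all 22 alternatives that gave it a value. The log2 difference of Jag2 was -0.47, with a fall in LLC1, and it passed in 17 of 23 alternatives. It was lost without the second 168FARN library alone, the first or the second 168FARN WT coculture library, the first or the second LLC1 library alone or the first LLC1 WT coculture library (edgeR adjusted p = 0.0587 to 0.0727). Jag1 rose in 168FARN and not past the threshold in LLC1, with a log2 difference of -0.77 that passed in 7 of 23 alternatives and was lost with no scaling factors (edgeR adjusted p = 0.061) and without any 1 of 15 libraries (edgeR adjusted p = 0.0613 to 0.0977). The line and its fibroblast cannot be told apart, and the part of the fibroblast and mural markers that rose in 168FARN WT coculture was not tested.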

How the results depend on the processing

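The 168FARN counts stayed within 1.5 times under every alternative run, and so did the count of members that differed between the lines (2 to 4), except when libraries were left out, which was chosen after seeing the data: 1 to 6 (24.4% to 52.5% of all genes), with 6 without the third LLC1 sgPrrx1 library. In LLC1 the counts were not stable. For WT coculture against alone, members went from 2 to 6 with voom weights and 5 with only the 2 groups compared, and list genes from 7 to 14 with DESeq2, 48 with voom and 31 with 2 groups, where 17.7%, 58.6% and 40.7% of all genes were called. For sgPrrx1 coculture against alone, members went from 1 to 2 with DESeq2, 4 with voom and 0 with no filter, with the replicate block or with 2 groups, and list genes from 5 to 12, 37, 3 with the replicate block and 0 with 2 groups (15.1%, 48%, 2.96% and 0.215% of all genes, and 2.32% with no filter). Between the cocultures, members went from 0 to 3 with voom, and list genes from 0 to 3 with DESeq2 and 23 with voom (3.89% and 36.4% of all genes). Leaving out 1 library each gave 0 to 5 members and 3 to 36 list genes, 0 to 2 and 1 to 22, and 0 to 1 and 0 to 4 in these contrasts, where 2.09% to 44.2%, 0.398% to 26.7% and 0.0229% to 5.69% of all genes were called. The cause was not tested, beyond the spread that the third sgPrrx1 library adds.

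The replicate block moved no other count by over 1.5 times. Signs turned only for uncalled values. Between the 168FARN cocultures these were Hes1 (0.0027 with RLE, 0.0036 with DESeq2, 0.0206 with voom, 0.0205 with 2 groups, -0.0975 to 0.0703 with a library left out) and Hey1 (0.0075 with RLE, 0.0082 with DESeq2, 0.0253 with 2 groups, 0.0033 with no filter, 0.0128 with the block, -0.1001 to 0.1681 with a library left out). In LLC1 they were Dll1 in sgPrrx1 coculture (0.0941 with voom, -0.3735 to 0.1624 with a library left out) and, between the cocultures, Nrarp (-0.0427 with voom, -0.005 to 0.1906 with a library left out), Notch2 (-0.0758 to 0.4584) and Notch3 (-0.0976 to 0.2593).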
